A study of Mus musculus with 12 samples.

Results

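Control pre-T cells were compared at the steps before and after beta selection, DN3a and DN3b, in 8 of the 12 RNA libraries of the series. The members were chosen by their labels: 4 libraries of Control DN3a and 4 of Control DN3b, with the replicate number of the title used to pair them. The cells were FACS sorted from the thymus of C57BL/6 mice of genotype Zfp36l1fl/fl, Zfp36l2fl/fl, so both control groups carry the floxed alleles and the labels name no Cre for them. The 2 genes encode RNA-binding proteins that recognise AU-rich elements. The remaining 4 libraries (DCKO DN3) came from mice with the same alleles and CD2cre, and are used here only for a few values set side by side. The sources used here do not give the age of the mice, the number of animals per sample or the gates of the sort. The submitters describe the 4 samples of a group as biological replicates.

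DN3 thymocytes lack both coreceptors CD4 and CD8, carry the interleukin 2 receptor alpha chain (CD25) and are held at a checkpoint. A cell that has joined a functional T cell receptor beta gene displays it with the invariant pre-T alpha chain and CD3, and the signal of this pre-T cell receptor, acting with Notch and the chemokine receptor CXCR4, ends recombination at the beta locus, starts rapid growth and division and leads towards the stage with both coreceptors. DN3a names the small cells before the signal and DN3b the enlarged cells that received it, which begin to display CD28 and to lose CD25.

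The stage markers separated the libraries as labelled. Il2ra, the gene of CD25 (chromosome 2, 11642807 to 11693193, GRCm38), stood at 647, 596, 549 and 989 CPM (counts scaled to the size of the library) in DN3a libraries 1 to 4 and at 197, 154, 96.0 and 149.7 in DN3b libraries 1 to 4. Cd28 stood at 46.6, 63.2, 48.6 and 44.6 CPM in DN3a and at 86.8, 117, 113 and 112 in DN3b, and Cd8b1, the beta chain of CD8, at 0.510, 0.763, 0.328 and 0.340 and 9.06, 23, 27.9 and 18.7. For these 3 genes the lowest library of one stage lay beyond the highest of the other, as in 48.5% of all genes tested. The log2 fold changes of DN3b against DN3a were -2.23 ± 0.17 (SE) for Il2ra, 1.08 ± 0.09 for Cd28 and 5.28 ± 0.32 for Cd8b1, with adjusted p of 2.76e-05, 3.86e-05 and 1.42e-05 (edgeR quasi-likelihood test with replicate number as a block, Benjamini-Hochberg over all genes tested). Cd4 stayed near 1 CPM at both stages, with 1.08, 1.0, 1.14 and 1.94 CPM in DN3a and 1.47, 0.848, 1.44 and 2.17 in DN3b (adjusted p = 0.490). The RNA was taken from sorted populations, so fewer cells of a type and less RNA per cell cannot be told apart in any value below.

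The 8 libraries held 28479157 to 45975678 counts. The first principal component of log2 CPM took 68.3% of the variance and placed the DN3a libraries 1 to 4 at -69.8, -59.8, -46.9 and -33.8 and the DN3b libraries at 14.3, 38.2, 66.0 and 91.8. DN3b library 1 therefore lay nearest to DN3a, and results that rest on it are given without replicate number 1 where they move. Malat1, an abundant nuclear RNA, took 0.58 to 0.84% of the counts in DN3a and 0.099 to 0.24% in DN3b, and mitochondrial genes took 2.9 to 4.3% and 1.6 to 3.4%. Markers of other cells were low or mixed. Of 22 myeloid markers 18 were under 1 CPM in all 8 libraries and their summed level was 26.4 to 37.6 CPM in DN3a and 8.0 to 16.7 in DN3b, while 15 thymic stroma markers summed to 272.5 to 333.5 and 113 to 212 CPM with 10 of the 15 under 1 CPM in all 8 libraries. Summed levels of 14 B cell markers (132 to 178.5 and 257 to 409 CPM) and of 14 cytotoxic markers (166 to 284 and 422 to 611 CPM) were higher in DN3b, most of it from 1 gene each, described below. The 14 erythroid and platelet markers summed to 13.5 to 40.4 and 4.41 to 34.8 CPM.

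Passage from DN3a to DN3b moved most of the transcriptome. Of 13715 genes tested, 9233 (67.3%) passed an adjusted p of 0.05, with 4529 (33.0%) higher and 4704 (34.3%) lower in DN3b. Among them 1209 rose and 1710 fell by at least 2-fold, and 32 rose and 81 fell by at least 8-fold. The median called rise was 1.6-fold and the median called fall 1.71-fold, so most of the calls are modest in size. The change had the same direction in all 4 replicate numbers for 9020 of the 9233 genes (97.7%), and 70.1% of the called genes had no overlap between the libraries of the stages, against 48.5% of all genes tested. The calls were made from these same libraries and pairs, so both shares describe the calls and are not separate support. The median log2 fold change of all genes was -0.04, a value that the scaling largely sets. It was -0.16 with upper quartile scaling, which gave 3795 rises and 5534 falls. CPM gives a share of the counts and not an amount of RNA per cell. The authors' deposited table of this comparison lists 3884 genes as higher and 3873 as lower at an adjusted p under 0.05, and 7370 of its 7757 calls were also made here, all of them in the same direction. At the level of detection, 0 genes had at least 1 CPM in all 4 libraries of one stage and under 0.1 CPM in all 4 of the other. Without replicate number 1 there were 1 in DN3a and 2 in DN3b, and with 0.5 and 0.2 CPM in place of these limits 9 and 3. The cell cycle lists took part as a whole and are given by count only: 48 of 51 genes of G1 and S phase, 70 of 72 of G2 and M phase and 54 of 57 histone genes rose, against 33.0% of all genes. The exceptions in G1 included Ccnd2 (-1.25 ± 0.07) and Cdk6 (-0.51 ± 0.06), a D cyclin and its partner kinase, which fell while the later cyclin gene Ccne1 (2.77 ± 0.11) rose.

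The largest rises outside the cell cycle lists joined receptor, transcription and metabolic genes. H2-Q2, a nonclassical MHC class I gene of the Q region, stood at 0.255, 0.723, 0.504 and 1.87 CPM in DN3a libraries 1 to 4 and at 18, 40.2, 56.0 and 106 in DN3b, a 67.5-fold rise (adjusted p = 7.06e-06). Its DN3b libraries differed by more than 5-fold among themselves. All rises named by this rule were chosen to have no overlap between stages. Ikzf3, the Ikaros family factor Aiolos, moved from 1.82, 3.47, 3.23 and 2.89 to 13.3, 26.9, 31.1 and 37.0 CPM (9.18-fold, 8.74e-06). DN3b library 1 was the lowest of its stage for Cd8b1 and Ikzf3. Prdx4, a peroxiredoxin of the endoplasmic reticulum, rose 13.3-fold, and Bcat1, which transfers the amino group of branched-chain amino acids, rose 8.69-fold from 5.45, 5.56, 6.96 and 13.5 to 51.6, 54.7, 61.3 and 95.2 CPM. The other rises named by the same rule were Arsi, a sulfatase gene (7.49-fold), Syt13 of the synaptotagmin family (7.13-fold), Sapcd2 (6.67-fold), the DNA helicase gene Pif1 (6.44-fold), Phf19, a partner of the polycomb repressive complex (5.71-fold), and the ETS factor gene Etv5 (5.67-fold).

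Among the 12 largest falls, several genes were left at a few CPM or less. Khdc1a had 69.0, 54.9, 145 and 82.3 CPM in DN3a and 9.68, 4.39, 5.62 and 4.69 in DN3b (14-fold lower, adjusted p = 2.63e-05). H19, an imprinted long noncoding RNA, ranged widely within each stage. It had 791, 230.1, 292 and 645 CPM in DN3a and 111, 27.4, 15.4 and 30.4 in DN3b. These falls, like the rises above, were chosen to have no overlap between stages. Scn4b, a beta subunit of voltage-gated sodium channels, fell from 335, 163, 146 and 97.7 to 51.1, 19.4, 9.25 and 3.76 CPM (11.4-fold). Hsd11b1, whose enzyme regenerates active glucocorticoid, fell from 51.9, 38.6, 36.3 and 36.8 to 11.5, 5.14, 1.99 and 1.03 CPM (10.5-fold), and the cytochrome P450 gene Cyp2j6 from 22.4, 23.9, 24.4 and 23.3 to 6.75, 2.85, 0.609 and 0.276 CPM (12.2-fold). DN3b library 1 held the highest DN3b level of Khdc1a, H19, Scn4b, Hsd11b1 and Cyp2j6. The remaining falls were Klhl4 (10.2-fold), the serine protease inhibitor gene Serpinb1a (9.94-fold), the cysteine protease inhibitor gene Ctla2a (9.0-fold), the ETS factor gene Erg (8.92-fold), the zinc finger gene Tshz2 (8.83-fold), Nfe2, a factor known from megakaryocytes (8.54-fold), and the nebulin gene Neb (8.26-fold). Without replicate number 1 the log2 fold changes of Cyp2j6, Serpinb1a, Ctla2a, Erg and Nfe2 were -4.36, -3.93, -3.84, -3.75 and -3.73, in place of -3.62, -3.31, -3.17, -3.16 and -3.10. Without replicate number 4, Serpinb1a stood at -2.69 and Nfe2 at -2.51. H2-Q2, Khdc1a, Ctla2a and Serpinb1a have close paralogs, and reads of such genes may be split between copies.

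**Figure D1:**
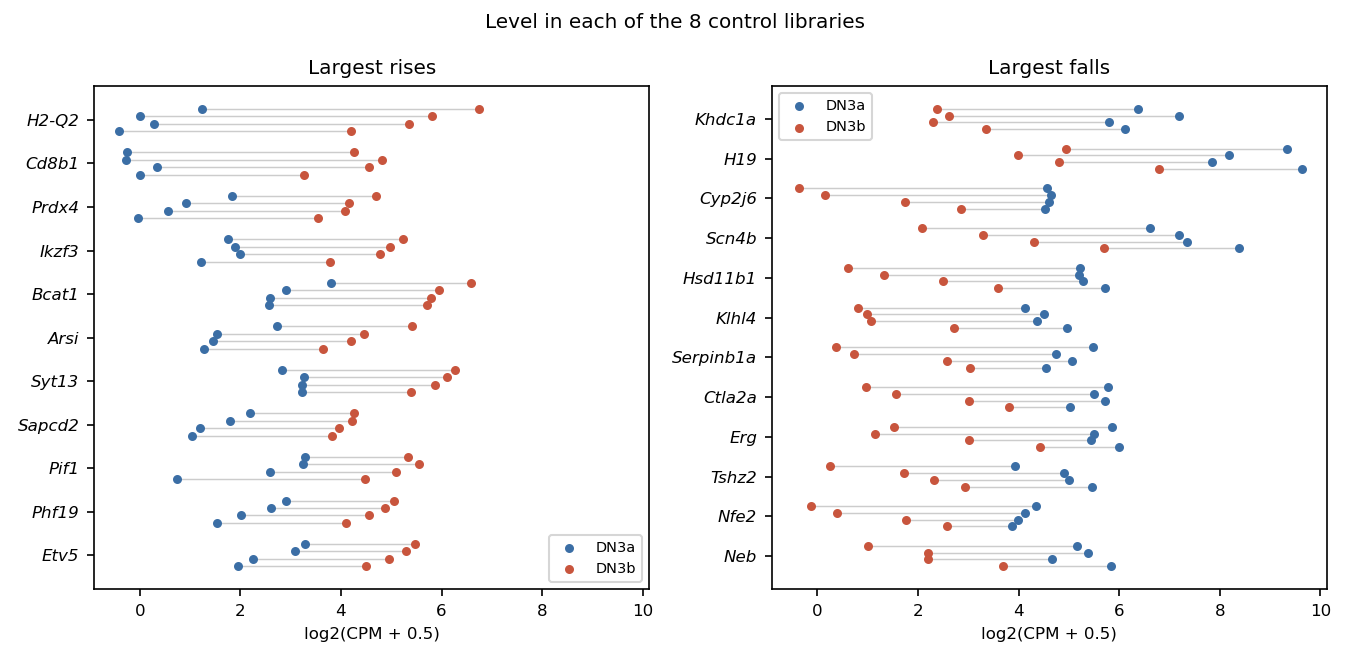
Levels of 11 of the 12 largest rises (left) and the 12 largest falls (right) on the log2(CPM + 0.5) axis, with DN3a in blue, DN3b in red and 1 grey line for each replicate number (number 1 lowest in each gene's row, number 4 highest). All genes shown were chosen to have no overlap between stages, and for Scn4b, Hsd11b1 and Cyp2j6 the DN3b points spread more widely than the DN3a points.

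Genes of the receptor complex moved in both directions. Of 8 genes for the pre-T cell receptor and CD3, 3 rose (37.5%) and 5 fell (62.5%), against 33.0% and 34.3% of all genes. Ptcra, the pre-T alpha chain, stood at 256, 99.6, 101 and 128 CPM in DN3a and at 135, 43.5, 39.4 and 42.6 in DN3b. DN3b library 1 overlapped the DN3a range, but the level was lower in DN3b in each of the 4 replicate numbers (log2 -1.26 ± 0.10, adjusted p = 3.84e-05); without the block the adjusted p was 0.0579. Cd3g (-1.25 ± 0.13) and Cd3e (-0.51 ± 0.07) fell while Trbc2, a beta constant gene, rose (0.65 ± 0.06) from 714, 717, 726 and 699 to 1095, 1092, 1091 and 1192 CPM. Trac, the constant gene of the alpha chain that takes over from pre-T alpha at later stages, had 0.0319, 0.321, 0.277 and 0.408 CPM in DN3a and 0.869, 1.59, 2.02 and 4.10 in DN3b, a low level at which the stages did not overlap. Of 60 measured receptor gene segments 26 rose (43.3%) and 14 fell (23.3%), against 33.0% and 34.3% of all genes. Without replicate numbers 2, 3 and 4 in turn, 6, 7 and 8 segments fell, while 24, 24 and 25 rose. Rag1, which forms the recombinase with Rag2, stood at 2684, 1709, 1400 and 1944 CPM in DN3a and at 1698, 886, 781 and 811 in DN3b. Rag2 stood at 207, 211, 160.3 and 178 and 113, 82.4, 50.5 and 49.3 CPM. Both fell (log2 -0.93 ± 0.10 and -1.44 ± 0.15), Rag1 with an overlap made by DN3b library 1; in a fit of all 12 libraries without the block Rag1 had an adjusted p of 0.0568. Polm, a DNA polymerase of end joining, rose (1.74 ± 0.29) from 0.350, 0.582, 0.782 and 0.374 to 0.943, 1.26, 3.02 and 2.21 CPM.

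Genes that carry the receptor signal fell more often than they rose. Of 33 kinases and adaptors next to the receptor, 6 rose and 22 fell (66.7%, against 34.3% of all genes), or 4 and 13 without the block, and their median log2 fold change was -0.29 against -0.04 for all genes. Zap70, the kinase that binds phosphorylated CD3 and zeta chains, was the largest rise of the list, from 18.9, 15.7, 21.4 and 25.9 CPM in DN3a to 65.8, 55.5, 72.2 and 89.0 in DN3b (3.46-fold, adjusted p = 7.06e-06). Its relative Syk moved the other way, from 119.8, 105, 108 and 100.3 to 82.2, 66.2, 54.9 and 43.0 CPM (1.8-fold lower, 0.000341). Neither kinase overlapped between stages. Sh2d1a, an adaptor gene of SLAM receptors, rose as well (1.29 ± 0.13), whereas the Tec kinase gene Tec (-1.76 ± 0.21), the exchange factor gene Vav3 (-1.63 ± 0.24) and Plcg1 (-1.01 ± 0.08) fell. Among 23 inhibitors of the signal 4 rose (17.4%, 1 gene without the block) and 10 fell (43.5%), against 33.0% and 34.3% of all genes. Csk, which phosphorylates the inhibitory tyrosine of Lck, stood at 0.73 ± 0.07 and the ubiquitin ligase gene Cblb at -1.72 ± 0.09.

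Of 21 measured genes used as readouts of the pre-T cell receptor signal, 8 rose and 8 fell (38.1% each, against 33.0% and 34.3% of all genes), or 4 fell without the block. Id3, an inhibitor of E proteins, rose from 5.89, 3.81, 4.76 and 3.77 to 22, 17.1, 20.3 and 13.2 CPM (3.99-fold) and Cd5, a receptor that tracks signal strength, from 7.36, 6.14, 4.97 and 7.99 to 14.3, 15.1, 11.6 and 17.9 CPM (2.24-fold). Egr1, an early response gene of receptor signals, had 3.47, 2.25, 2.22 and 1.63 CPM in DN3a and 2.13, 2.44, 2.24 and 1.62 in DN3b and did not pass (adjusted p = 0.540). Of 18 measured AP-1 and immediate early genes, 4 rose (22.2%) and 5 fell (27.8%), against 33.0% and 34.3% of all genes. Jun was among the falls (-1.59 ± 0.23). E proteins and their inhibitors split as well: Id3 rose while Id2 (-1.42 ± 0.23) and Id1 (-1.89 ± 0.53, at under 1 CPM) fell, and Tcf3, which encodes E2A, rose (0.68 ± 0.07) while Tcf12, which encodes HEB, fell slightly (-0.23 ± 0.06). Without the block Tcf3 (adjusted p = 0.0806) and Tcf12 (0.0504) missed the threshold, and Tcf12 also missed it without replicate number 2 (0.0649).

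Coreceptor and costimulatory genes gained a small group of members and lost a larger one. Of 36 measured, 8 rose (22.2%) and 21 fell (58.3%), against 33.0% and 34.3% of all genes. Cd2, an adhesion receptor of T cells, went from 0.446, 0.201, 0.176 and 1.19 CPM in DN3a to 3.90, 5.29, 4.60 and 23 in DN3b, with library 4 the highest at both stages. Cd81, a tetraspanin, rose 5.37-fold, Cd8a 7.73-fold from 0.510, 0.522, 0.353 and 0.442 to 2.43, 3.60, 4.07 and 4.34 CPM, and the SLAM family gene Ly9 3.46-fold. The falls included Cd53 (-2.19 ± 0.47), Lag3 (-2.33 ± 0.43), Cd244a (-2.38 ± 0.33) and Cd27 (-0.52 ± 0.08). These values are RNA and do not give the surface level of the proteins. Beside the CD8 genes, the summed level of 21 genes of double-positive and mature T cells was 2319 to 3120 CPM in DN3a and 1353 to 2301 in DN3b. Of 19 measured genes 6 were higher (31.6%) and 10 lower (52.6%). The part of any such cells in the result was not tested.

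Cytokine signalling genes fell broadly, with feedback inhibitors among the largest falls. Of 47 measured receptor, JAK-STAT and SOCS genes, 4 rose (8.51%) and 30 fell (63.8%, median log2 -0.61), against 33.0% and 34.3% of all genes. Cish, a STAT5 target that restrains cytokine receptors, went from 77.9, 37.9, 64.8 and 95.0 CPM to 22.1, 7.14, 7.12 and 5.17 (7.21-fold lower, adjusted p = 0.000250), and Socs3 from 100.2, 38.3, 36.8 and 37.8 to 27.7, 9.38, 5.71 and 6.93 (4.71-fold). The stages did not overlap for either gene. Stat4 fell (-1.27 ± 0.15), as did Il7r, the receptor of the main survival cytokine of early thymocytes (-0.61 ± 0.06), and Il2rg, the shared gamma chain (-0.60 ± 0.06). The 4 rises were Il2rb (3.40 ± 0.50, from 0.159, 0.241, 0.126 and 0 to 0.794, 2.13, 1.5 and 1.31 CPM), Il9r (1.63 ± 0.11, from 2.83, 3.81, 5.19 and 5.91 to 10.2, 10.9, 15.1 and 18.6 CPM), Il12rb2 (0.93 ± 0.07) and Il10rb (0.53 ± 0.14, adjusted p = 0.0124, or 0.104 without the block and 0.0576 and 0.0666 without replicate numbers 2 and 3). Stat5b, one of the STAT5 genes, did not pass (-0.03 ± 0.06, 0.720).

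Genes of the Notch pathway fell at several steps. Of 35 measured, 3 rose and 21 fell. The receptor gene Notch3 stood at 906, 327, 411 and 326 CPM in DN3a and 375, 109, 88.2 and 57.8 in DN3b, with replicate number 1 highest at both stages and an overlap made by DN3b library 1, and fell by 1.89 on the log2 scale (adjusted p = 0.000106). Notch1 changed from 2495, 1104, 1344 and 1387 to 1479, 751, 838 and 788 CPM (-0.70 ± 0.07), again with number 1 the highest at both stages; without the block its adjusted p was 0.0671. The target gene Hes1 fell from 138, 139, 103 and 90.0 to 74.8, 33.2, 15.8 and 20.7 CPM without overlap (3.82-fold). The Deltex genes Dtx1 (-2.01 ± 0.08) and Dtx4 (-2.83 ± 0.22), regulators of Notch receptors, fell, and so did the gamma-secretase subunit genes Aph1b (-2.13 ± 0.32) and Aph1c (-2.64 ± 0.31), which are close copies of each other. Fringe genes, whose enzymes tune ligand choice, moved apart, with Mfng at 0.73 ± 0.08 and Lfng at -1.34 ± 0.17. The direct target Nrarp (0.27 ± 0.14, 0.110) did not pass. Of 28 genes of the Wnt pathway 13 rose (46.4%) and 8 fell (28.6%), against 33.0% and 34.3% of all genes. The pathway's nuclear factor gene Tcf7 was among the rises (0.95 ± 0.09). It went from 572, 588, 682 and 689.6 to 888, 1177, 1416 and 1484 CPM.

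**Figure D2:**
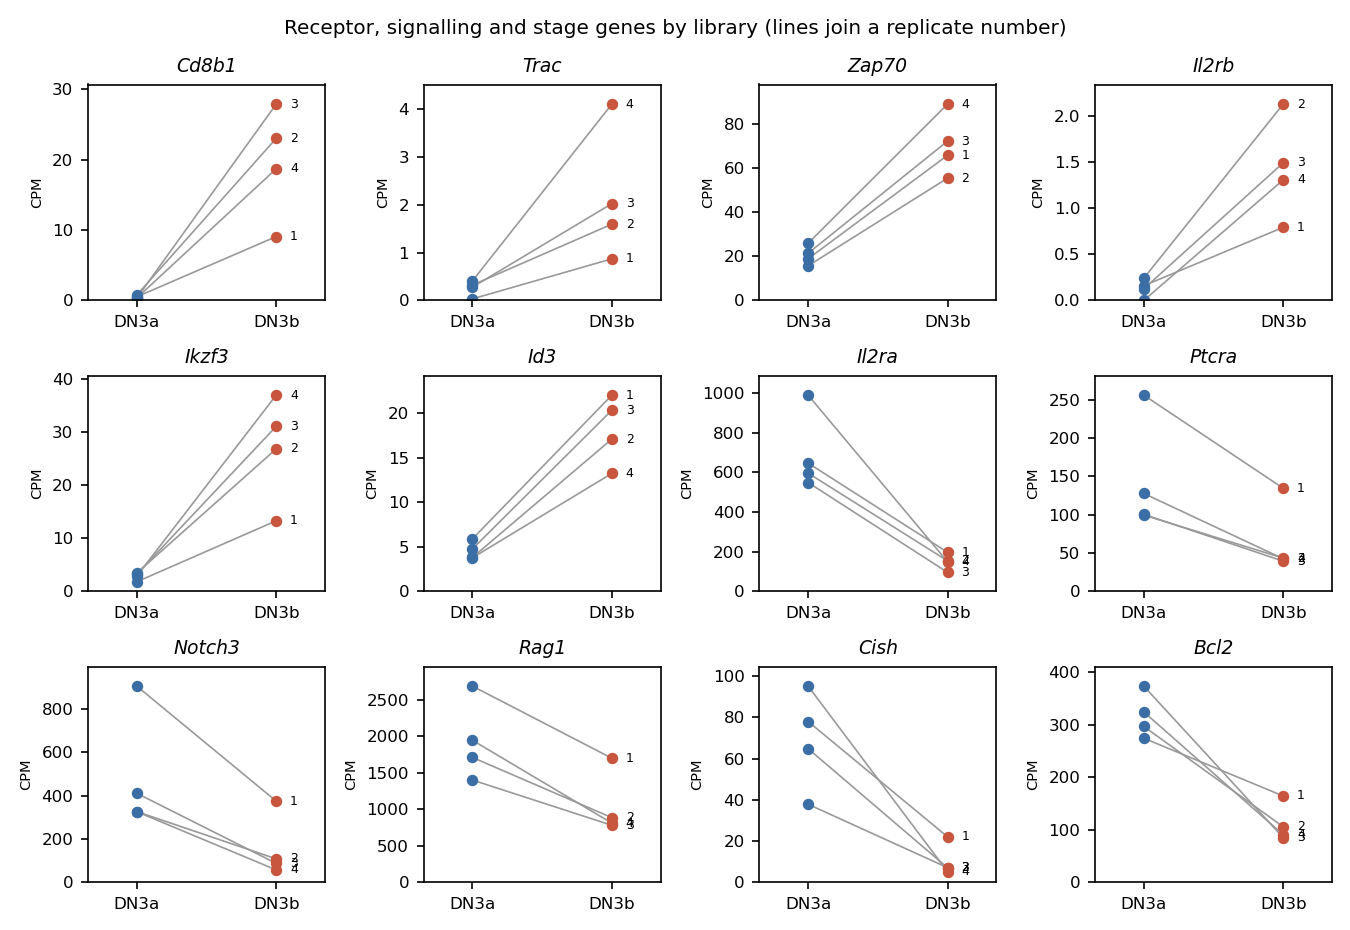
Levels in CPM of 12 genes in each library, DN3a in blue and DN3b in red, with grey lines joining a replicate number and the number printed at the DN3b point; each panel starts at 0. Zap70, Ikzf3 and Id3 rise in all 4 numbers, and Ptcra, Notch3 and Rag1 fall in all 4 although replicate number 1 stands highest at both stages.

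Transcription factors of the T lineage fell more often than they rose, 26 against 12 of 52 measured. Beside Ikzf3 the rises included Tcf7 and Ikzf1, the gene of Ikaros (0.60 ± 0.07). Bcl11b, which fixes T lineage identity, was lower in DN3b without overlap (613, 601, 553 and 602 against 489, 362, 366 and 371 CPM, log2 -0.59 ± 0.08), and Runx1 (-0.60 ± 0.10), Myb (-0.84 ± 0.08), Zbtb20 (-1.98 ± 0.24), Ikzf4 (-2.11 ± 0.19) and Zeb2 (-2.20 ± 0.30) fell as well. Gata3 stood at 32.6, 39.6, 38.2 and 37.5 CPM in DN3a and 37.0, 40.5, 44.2 and 44.8 in DN3b (log2 0.17 ± 0.07, adjusted p = 0.0570); it passed with DESeq2 (0.0341) and with DESeq2 size factors in edgeR (0.0380). Of 17 measured early progenitor genes 10 fell (58.8%) and 1 rose (5.88%). The falls included Erg, Nfe2, Mycn (-2.79 ± 0.26) and Kit (-0.84 ± 0.19), and the rise was Gfi1b (1.55 ± 0.25, adjusted p = 0.000988, or 0.0714 without the block). In the MYC network Myc rose 1.57-fold, from 182, 119, 127 and 134 to 233, 186, 227 and 227 CPM, and Mxd3 5.32-fold, while Mxd4 (-1.52 ± 0.15) and Mxd1 (-0.85 ± 0.12) fell. Of 26 NFAT, NF-kappaB and IRF genes 4 rose (15.4%) and 16 fell (61.5%), with Nfatc3 at 0.72 ± 0.08 and Nfatc2 at -1.39 ± 0.20.

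The growth programme was broad and even, and it covered the parts of the machinery that make, fold, move and degrade proteins. All 42 measured genes of ribosome biogenesis rose (median log2 0.91) and all 23 of the cytosolic aminoacyl-tRNA synthetases and their scaffolds (median 0.95). Lyar, a nucleolar protein gene, stood at 33.5, 39.1, 40.3 and 53.2 CPM in DN3a and 111, 134, 139.5 and 183 in DN3b (3.41-fold, adjusted p = 7.06e-06), and the glycyl-tRNA synthetase gene Gars at 104, 105, 122 and 143 and 222, 284, 315 and 395 CPM (2.54-fold). The stages did not overlap for either gene. Of 82 cytosolic ribosomal proteins 76 rose and 1 fell. Of 64 translation factors 54 rose, of 76 mitochondrial ribosomal proteins 74, of 45 proteasome genes 38, of 41 chaperone genes 35, of 48 nuclear pore and transport genes 43 and of 85 splicing genes 75; 4, 0, 0, 2, 0 and 4 of them fell. Kpna2, an importin, rose 4.09-fold and the transport GTPase gene Ran 3.13-fold. Members that stood against their list included Rpl3l, a muscle form of a ribosomal protein (-2.45 ± 0.46), the translation factor gene Eif4e3 (-0.79 ± 0.12), the splicing factor gene Srsf5 (-0.78 ± 0.06) and the chaperone gene Dnajc7 (-0.61 ± 0.05).

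Supply routes for this growth moved with it in most but not all branches, beside 33.0% rises and 34.3% falls among all genes. Of 38 genes of nucleotide and folate synthesis 33 rose and 3 fell (median log2 1.27), with the mitochondrial folate enzyme gene Shmt2 at 71.7, 50.3, 76.5 and 91.2 CPM in DN3a and 275, 243, 341 and 349 in DN3b (4.21-fold). Of 35 genes of amino acid, iron and polyamine supply 26 rose and 3 fell, with Odc1, the first enzyme of polyamine synthesis (3.69-fold), Slc3a2 and Slc7a5, the chains of a large neutral amino acid transporter (1.32 ± 0.06 and 1.67 ± 0.08), and the transferrin receptor gene Tfrc (1.07 ± 0.08). Of 34 genes of glucose uptake and glycolysis 25 rose, among them Ldha (3.38-fold) and Pfkp (3.65-fold), and 5 fell, among them Aldoc (-1.68 ± 0.17). Cholesterol genes were less uniform: 16 of 29 rose (55.2%) and 7 fell (24.1%, median 0.25), and the falls held the efflux pump gene Abcg1 (-1.27 ± 0.16). Of 37 fatty acid and phospholipid genes 9 rose (24.3%) and 12 fell (32.4%), against 33.0% and 34.3% of all genes. Fasn was among the rises (1.24 ± 0.12). Lysosome and autophagy genes fell more often, with 9 higher (17.3%) and 25 lower (48.1%) of 52.

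The respiratory chain separated by genome. Of 79 measured nuclear genes for its subunits 76 rose (96.2%) and 1 fell (1.27%, median log2 0.87), against 33.0% and 34.3% of all genes. Examples of the rises were Cycs, the gene of cytochrome c (1.6 ± 0.06), and Uqcr11 (1.48 ± 0.11). Of 12 measured mitochondrially encoded subunits 1 rose, mt-Nd3 (0.43 ± 0.07, adjusted p = 0.000964, or 0.0712 in the fit of all 12 libraries without the block), and 0 fell, with a median of -0.13. Their summed level was 18734, 21162, 18469 and 17415 CPM in DN3a libraries 1 to 4 and 13582, 19682, 21266 and 14578 in DN3b, so the stages overlapped. With upper quartile scaling 1 of these genes rose and 4 fell, without replicate number 3, 1 rose and 3 fell, and without number 1, 5 rose and 0 fell, with a median of 0.10. Mitochondrial transcripts are made from the same small genome and are not independent of each other.

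Genes of the resting state fell as a group. Of 32 measured FOXO, TOB and quiescence genes 3 rose (9.4%) and 25 fell (78.1%), against 33.0% and 34.3% of all genes, with a median log2 fold change of -0.73. Btg1, an antiproliferative partner of the deadenylase complex, stood at 272, 275, 209 and 205 CPM in DN3a and at 109, 66.2, 37.9 and 31.5 in DN3b (4.38-fold lower, adjusted p = 8.32e-05), and Txnip, which restrains glucose uptake, at 582, 587, 654 and 571 and 315, 200.5, 154 and 122 CPM (3.23-fold lower). The stages were apart for both genes. Arrdc4 (-2.57 ± 0.35), Ypel3 (-2.19 ± 0.33) and Pik3ip1, an inhibitor of PI3 kinase (-1.76 ± 0.25), fell too, while Klf2 did not pass (-0.01 ± 0.43, adjusted p = 0.988). The rises were the cycle inhibitor gene Cdkn2c (1.46 ± 0.08), Foxo4 (0.67 ± 0.07) and Rb1 (0.35 ± 0.07, adjusted p = 0.00251, or 0.124 without the block). The PI3 kinase and mTOR pathway held 12 rises (31.6%) and 13 falls (34.2%) among 38 genes, near the 33.0% and 34.3% of all genes. The split changed side with DESeq2 (13 and 12) and without replicate number 1 (17 and 14). Rises of the pathway included Akt1 (1.12 ± 0.07) and its falls the phosphatase gene Inpp4b (-1.96 ± 0.17) and Pik3cd (-1.34 ± 0.15).

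In the BCL2 family and its caspases 7 rose (25.0%) and 13 fell (46.4%) of 28, against 33.0% and 34.3% of all genes. Bcl2 fell from 274, 297, 374 and 324 to 164, 106, 85.2 and 90.8 CPM (2.93-fold, adjusted p = 0.000356) and Mcl1 by 0.89 on the log2 scale, both survival genes. Among death-promoting genes Bmf fell from 506, 247, 290.2 and 125 to 131, 45.5, 43.0 and 16.1 CPM (5.70-fold), with DN3b library 1 inside the DN3a range, whereas Bid (1.5 ± 0.11) and Bax (1.03 ± 0.11) rose. Bcl2l1, a survival gene of later thymocytes, stood at 21.3, 17.9, 21.5 and 22.6 CPM in DN3a and 21.9, 20.4, 23 and 23.1 in DN3b and did not pass (0.09 ± 0.07, 0.320). Of 25 genes of p53 and its targets 8 rose (32.0%) and 9 fell (36.0%), near the 33.0% and 34.3% of all genes. The split changed side without the low-count filter (9 and 8) and without replicate number 3 (8 and 7).

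Position and adhesion genes fell more often than they rose, 21 (53.85%) against 7 (17.95%) of 39. The shares of all genes were 34.3% and 33.0%. Integrin alpha E (Itgae) and E-cadherin (Cdh1), which bind each other in epithelia, both fell, Itgae from 25.9, 17.6, 15.4 and 14.9 to 9.93, 3.80, 1.8 and 0.551 CPM and Cdh1 from 80.1, 56.8, 49.8 and 54.8 to 27.6, 12.8, 6.98 and 2.27 CPM (6.09-fold and 6.16-fold). Both had their highest DN3b level in library 1 and their lowest in library 4. Epcam, an epithelial adhesion gene that thymocytes also express, fell from 139.5, 92.4, 101 and 77.9 to 47.4, 23.1, 18.4 and 13.0 CPM. Among markers of thymic stroma, the epithelial factor gene Foxn1 and the keratin gene Krt5 were at 0 in all 4 DN3a libraries and reached at most 0.0689 and 0.0277 CPM in DN3b. Others were detected in all 8 libraries: Psmb11, a proteasome gene of cortical epithelium, at 0.127 to 0.642 CPM, Krt8 at 0.0504 to 0.769, and the chemokine gene Ccl25 at 3.85 to 5.14. Pdgfrb was at 32.4 to 63.6 CPM in DN3a and 17.3 to 32.1 in DN3b, and Pecam1, which blood cells also express, at 125 to 171 and 73.5 to 123. The part of stromal RNA in these falls was not tested. The chemokine receptor gene Ccr9 stood at 304, 219, 223 and 111 CPM in DN3a and 217, 98.8, 73.4 and 29.6 in DN3b and overlapped (-1.27 ± 0.21, adjusted p = 0.00101, or 0.122 without the block), while Cxcr4 fell slightly without overlap (-0.35 ± 0.06). The beta 2 integrin gene Itgb2 rose (1.01 ± 0.12). G protein-coupled receptors and RGS regulators held 6 rises (15.8%) and 22 falls (57.9%) of 38. The rises were led by Adgre5 (CD97, 1.91 ± 0.15), and the falls included Gpr18 (-2.67 ± 0.47) and Rgs1 (-2.18 ± 0.31). Among 39 calcium and ion channel genes 13 rose and 13 fell, 33.3% each and near the shares of all genes (20 fell with upper quartile scaling). The kinase gene Camk4 rose 4.07-fold.

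**Figure D3:**
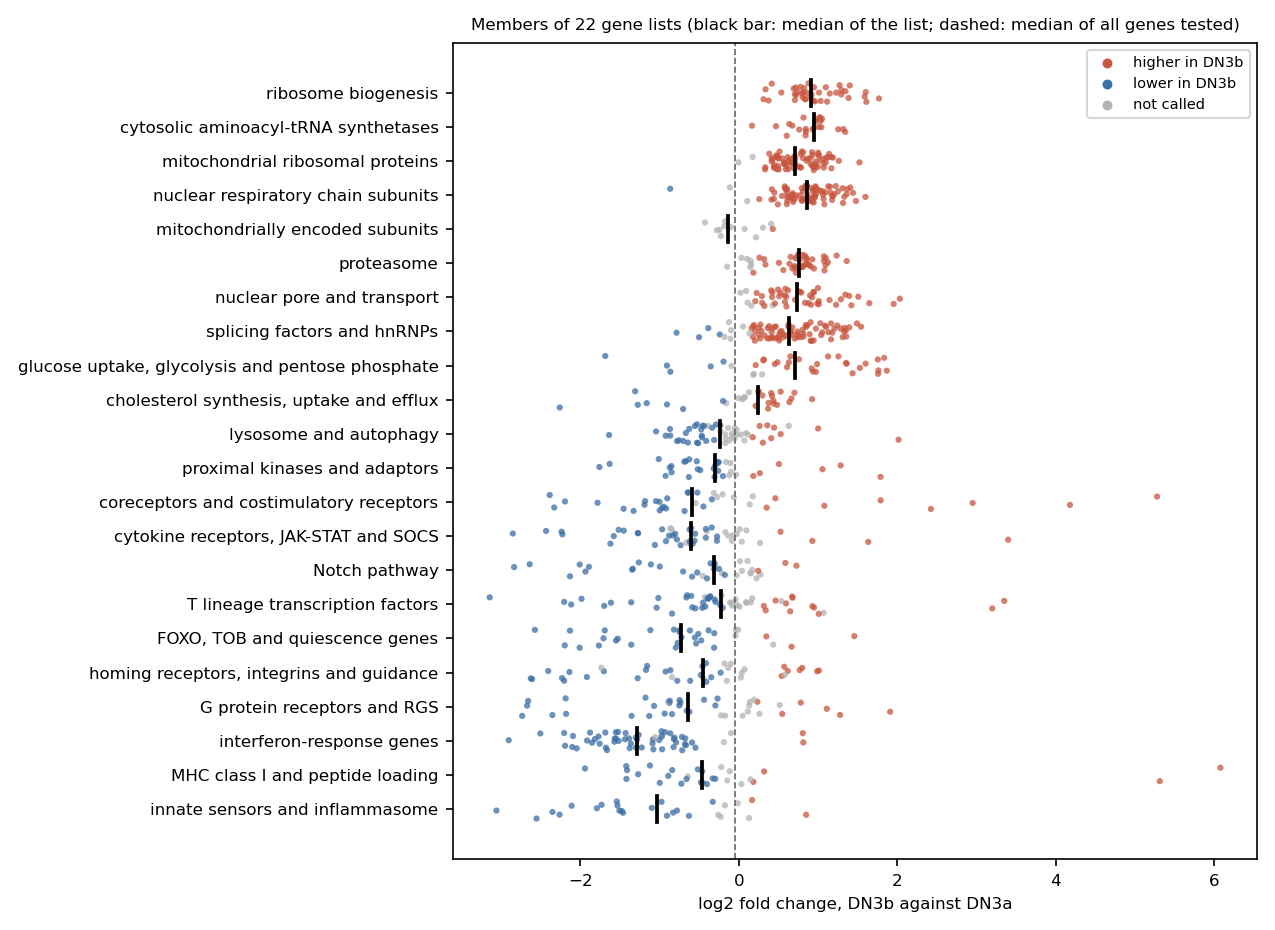
Log2 fold changes of DN3b against DN3a for the measured members of 22 gene lists (points; red higher, blue lower, grey not called), with the median of each list as a black bar and the median of all genes tested, -0.04, as a dashed line. The ribosome biogenesis, tRNA synthetase and nuclear respiratory chain lists sit to the right with at most 1 blue point each, interferon-response genes have the lowest median, -1.29, and the farthest points to the right in the MHC class I row are H2-Q2 and H2-Q1.

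Interferon-response genes had the lowest median of the lists with at least 6 measured genes, -1.29. Of 58 measured 52 fell (89.7%) and 2 rose (3.45%), against 34.3% and 33.0% of all genes. The rises were Ifit2 (0.81 ± 0.11) and Samhd1 (0.81 ± 0.15), which also limits deoxynucleotides. A DNA word found in many promoters of this class, GAAA and GAAA parted by any 2 bases, was searched on both strands in RefSeq promoter windows of GRCm38.p6, 250 bases before to 50 after each gene start. Of the 43 members with a window in the table, 25 (58.1%) held it, against 3.99% of the 27025 genes in the table and 3.44% of its 32851 windows. Among the 25 genes with the word 22 fell, and among the 18 without it 15 fell. The stretches of 4 members that fell are shown because they carry the word a short way upstream of the start, printed on the strand of the gene with the word in capitals.
Gbp7, +, chr3:142530268-142530307: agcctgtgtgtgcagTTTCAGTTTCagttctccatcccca
Gbp2, +, chr3:142620589-142620628: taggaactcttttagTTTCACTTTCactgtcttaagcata
Igtp, +, chr11:58199507-58199546: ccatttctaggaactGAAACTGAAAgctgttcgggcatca
Trim30a, -, chr7:104465205-104465244: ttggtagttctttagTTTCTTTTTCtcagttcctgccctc

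Beside these stretches, Gbp2, a guanylate-binding protein gene, stood at 76.4, 79.3, 72.0 and 71.5 CPM in DN3a and at 33.6, 25.9, 15.8 and 12.9 in DN3b (3.61-fold lower), and Gbp7 (-1.75 ± 0.13), Igtp (-1.38 ± 0.14) and Trim30a (-1.68 ± 0.17) fell likewise. On the other strand each part of the word reads TTTC. A match describes the letters in the window and not a bound factor. The largest fall of the list was Ifi44, from 18, 19.6, 24.3 and 11.2 to 5.78, 3.67, 2.16 and 0.172 CPM (7.47-fold). Its DN3b libraries ran over more than a 10-fold range, with library 4 lowest. Innate sensors fell too, with 19 of 26 lower (73.1%) and 2 higher (7.69%), against 34.3% and 33.0% of all genes. Among them the Toll-like receptor chaperone gene Unc93b1 fell from 70.4, 46.8, 47.2 and 46.7 to 30.3, 13.1, 6.40 and 3.24 CPM (5.10-fold). The summed level of myeloid markers, given above, was lower in DN3b as well, and Lyz2 made up most of the DN3a sum. Lyz2 fell from 19.7, 30.1, 20.3 and 31.2 to 9.21, 6.14, 1.33 and 1.07 CPM. Of 5 measured myeloid markers 1 rose (20.0%) and 2 fell (40.0%), with a median log2 fold change of 0.07. Cebpb went from 0.637, 0.943, 0.656 and 0.850 to 1.91, 1.77, 1.91 and 1.97 CPM, and Cd68 lay at 2.72 to 4.62 in all 8 libraries. The neutrophil gene Mpo was at 0 in all 4 DN3a libraries. The part of such cells in these falls was not tested.

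MHC class I genes held falls and a few large rises. Of 28 measured genes of class I and its peptide loading, 18 fell (64.3%) and 4 rose (14.3%), against 34.3% and 33.0% of all genes. The counts were 9 and 2 without the block. B2m, the shared light chain, stood at 1196, 1264, 886 and 1061 CPM in DN3a and 785, 649.6, 474 and 574 in DN3b (-0.84 ± 0.08), and H2-K1, a classical heavy chain, at 599.6, 368, 306 and 266 and 367, 189.9, 130.2 and 125 CPM (-1.0 ± 0.09, adjusted p = 5.81e-05, or 0.0632 without the block). H2-K1 overlapped through DN3b library 1, and B2m did not overlap. Against these, H2-Q2 rose as given above and H2-Q1 went from 0.0319, 0.0201, 0.0504 and 0.0680 to 0.521, 1.28, 2.21 and 3.24 CPM, while the Q region genes H2-Q10 (-1.27 ± 0.28) and H2-Q7 (-1.42 ± 0.12, adjusted p = 3.76e-05, or 0.249 without the block) fell. H2-Q genes are near-identical copies, so the share of reads assigned to each is uncertain. Among the GIMAP GTPases of lymphocytes 5 of 7 fell (71.4%, or 3 genes without the block), such as Gimap5 (-1.01 ± 0.13). Gimap4 rose from 0.0956, 0.602, 0.529 and 0.816 to 1.39, 1.82, 1.30 and 2.17 CPM (1.79 ± 0.38).

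Words of 3 other textbook factors were searched in the same windows. TTCNNNGAA, the core of STAT sites, was in 8 of 36 cytokine signalling genes with a window (22.2%) against 9.55% of all genes in the table, and 6 of the 8 fell, as did 17 of the 28 without it. Stretches of Cish and Socs3 are shown for their falls, with the words in capitals. The Cish stretch spans the annotated start and holds the word in 2 places.
Cish, +, chr9:107296654-107296683: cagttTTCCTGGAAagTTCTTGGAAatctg
Socs3, -, chr11:117969497-117969535: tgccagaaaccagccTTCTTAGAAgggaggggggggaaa

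CACGTG, the word that MYC and related factors bind, was in 9 of 37 ribosome biogenesis genes (24.3%) and in 4 of 15 aminoacyl-tRNA synthetase genes (26.7%), against 8.09% of all genes in the table; all 13 rose, as did the members without it. TGGGAA, the core word of the Notch partner RBPJ, was in 10 of 28 Notch pathway genes (35.7%) against 28.3% of all genes, and 5 of the 10 fell, as did 12 of the 18 without it.

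Several transcripts named as markers of other lineages rose in DN3b. Ighm, the constant gene of the antibody mu heavy chain, stood at 65.8, 119, 124 and 89.2 CPM in DN3a and 221, 303, 299.8 and 397 in DN3b (3.09-fold), and Gzma, a granzyme, at 105, 181, 215 and 223 and 392, 495, 479.7 and 603 CPM (2.80-fold). Neither overlapped between stages. Other markers of the same lists fell: Cd79b, a subunit gene of the B cell receptor, stood at 62.8, 51.5, 50.02 and 43.6 CPM in DN3a and 33.0, 19.5, 13.0 and 9.96 in DN3b, and Nkg7, a gene of cytotoxic granules, at 58.8, 58.6, 59.7 and 60.4 and 28.8, 16.6, 6.48 and 6.75 CPM, without overlap in either gene. Of 14 B cell markers 11 were under 1 CPM in all 8 libraries, and of 14 natural killer and cytotoxic markers 10. The B cell factor gene Pax5 reached at most 0.0252 CPM in any library, and the natural killer receptor genes Ncr1 and Klrd1 at most 0.0340 and 0.0252 CPM. The surrogate light chain genes Vpreb1 (-1.55 ± 0.27) and Igll1 (-1.46 ± 0.68, adjusted p = 0.0901) went the other way; without replicate number 1 Igll1 stood at -2.41 and passed (0.00365). Tbx21, the factor T-bet, moved from 0, 0.141, 0.277 and 0.238 to 0.472, 1.13, 0.969 and 1.45 CPM (2.66 ± 0.47). The summed level of gamma-delta T cell genes was 1688 to 2110 CPM in DN3a and 693 to 1154 in DN3b, most of it from the constant genes Tcrg-C1, Tcrg-C2 and Tcrg-C4. Of 11 measured genes 6 fell (54.55%), 1 rose (9.09%) and 4 did not pass, against 34.3% falls and 33.0% rises of all genes. The falls included Tcrg-C1 (-1.53 ± 0.19) and Tcrg-C4 (-1.31 ± 0.09). Sox13 (10.9 to 29.5 and 12.6 to 18.2 CPM) and Blk (15.2 to 27.6 and 15.3 to 20.6) overlapped between stages.

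Of 52 AU-rich binders and decay genes 22 rose (42.3%) and 15 fell (28.8%), against 33.0% and 34.3% of all genes, a split that turned to 18 and 20 with upper quartile scaling. Exosome subunits such as Exosc2 (1.0 ± 0.08) rose, and the floxed but intact genes Zfp36l1 and Zfp36l2 fell, Zfp36l1 from 47.4, 35.7, 28.8 and 33.0 to 24.3, 12.7, 12.7 and 10.2 CPM (2.51-fold) and Zfp36l2 by 0.58 on the log2 scale with overlapping stages (adjusted p = 0.000840, or 0.0642 in the fit of all 12 libraries without the block). Among Argonaute genes, which carry microRNAs, Ago2 rose (1.03 ± 0.07) while Ago1 (-0.52 ± 0.07) and Ago3 (-0.67 ± 0.06) fell, and the microRNA host genes Mir17hg (0.93 ± 0.06) and Mir155hg (-2.19 ± 0.24) moved apart. Of 80 chromatin regulators 33 rose (41.2%) and 32 fell (40.0%), or 29 and 35 with upper quartile scaling, against 33.0% and 34.3% of all genes. The rises held Dnmt1 (1.24 ± 0.09), the polycomb genes Ezh2 (0.73 ± 0.07) and Suz12 (0.79 ± 0.07), Hdac5 (2.71 ± 0.13, from 1.78, 1.56, 2.24 and 2.72 to 11.6, 11.8, 14.5 and 15.9 CPM) and the lamin genes Lmnb1 (1.59 ± 0.08) and Lmna (2.58 ± 0.25). The falls held Ezh1 (-1.09 ± 0.06), the DNA demethylase gene Tet2 (-1.19 ± 0.10), Hdac4 (-1.73 ± 0.14), and the methyltransferase genes Kmt2a (-0.88 ± 0.08) and Kmt2c (-1.05 ± 0.06). Igf2, the imprinted neighbour of H19, had 4.21, 0.963, 1.29 and 4.72 CPM in DN3a and 0.174, 0.0771, 0.0554 and 0 in DN3b.

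The shares of rises and falls differed by the class, length and level of the transcript. Of 1216 long noncoding or unclassified genes tested, 6.91% rose and 49.9% fell, whereas of 11610 protein-coding genes 37.2% rose and 33.0% fell. Within protein-coding genes cut into 4 equal groups by exonic length, the shortest had 47.6% higher and 22.7% lower, and the longest 26.3% higher and 44.6% lower. Cut into 4 equal groups by mean level instead, the lowest had 18.1% higher and 35.8% lower, and the highest 50.2% higher and 29.8% lower. The median exonic length, summed over all annotated exons of a gene, was 3889 bases for genes that rose, 5339 for genes that fell and 4568 for genes not called. These shares are descriptions over genes of the same 8 libraries, and the falls in Malat1 (log2 -1.85 ± 0.15), Neat1 (-1.8 ± 0.18) and the noncoding RNA Firre (-1.79 ± 0.19) stand beside rises in spliced hosts of small nucleolar RNA such as Snhg3 (1.32 ± 0.11) and Gas5 (0.49 ± 0.06). The part of RNA quality or of nuclear RNA content in this pattern was not tested.

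**Figure D4:**
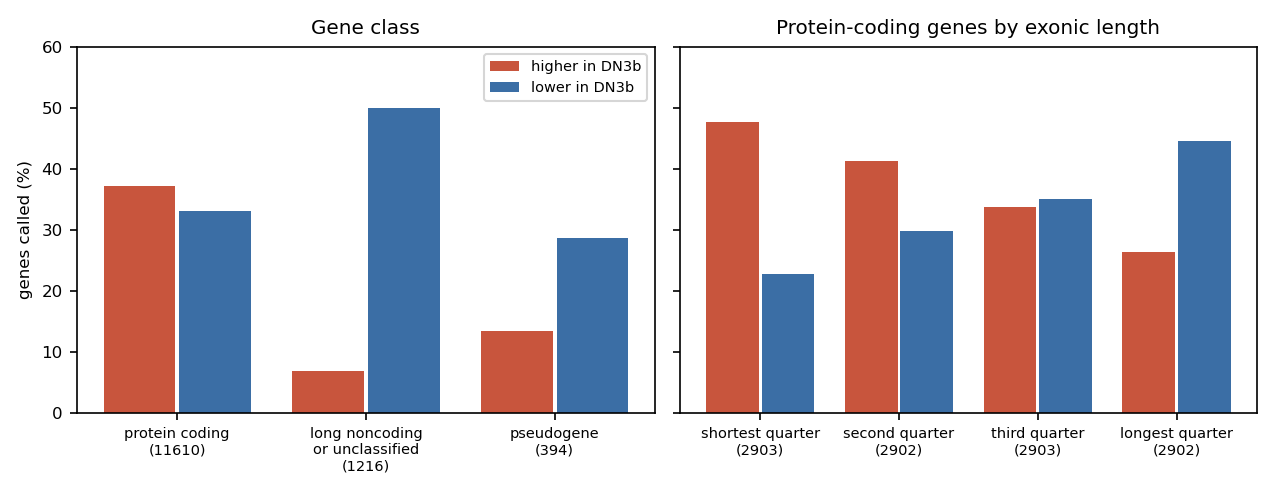
Percentage of genes tested that rose (red) or fell (blue) in DN3b, by gene class (left) and, for protein-coding genes, by 4 equal groups of exonic length (right), with the number of genes in brackets. Long noncoding or unclassified genes were 49.9% lower and 6.91% higher, and the share of rises dropped from 47.6% in the shortest group to 26.3% in the longest.

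The 4 replicate numbers shared the change but not its make-up. Across all 13715 genes, the log2 ratio of DN3b to DN3a within number 1 followed the mean of the other numbers with a slope of 0.731 and a correlation across genes of 0.834, against slopes of 0.965, 1.06 and 1.08 and correlations of 0.947, 0.952 and 0.912 for numbers 2, 3 and 4. Genes are not independent replicates, and these are descriptions. Number 1 was not smaller in every group of genes. The median log2 ratio of 72 genes of G2 and M phase was 2.48, 2.14, 1.81 and 1.5 in numbers 1 to 4, that of 57 histone genes 3.13, 3.12, 2.31 and 1.51, that of 51 genes of G1 and S phase 1.44, 1.57, 1.51 and 1.33, and that of 58 interferon-response genes -0.62, -1.14, -1.54 and -1.77. Number 1 therefore had the largest median rise of the G2 and M and histone genes and the smallest median fall of the interferon genes, and number 4 the reverse. The median of G1 and S phase was highest in number 2 and lowest in number 4. Ribosome biogenesis was steadier, at 0.75, 0.89, 0.94 and 0.98, as were the nuclear genes of the respiratory chain at 0.78, 0.89, 0.88 and 0.92. At the level of libraries, the genes of G2 and M phase summed to 2903 CPM in DN3a library 1 and 6898 in DN3a library 4, and to 9623 and 16735 CPM in DN3b libraries 1 and 4. What sets the replicate numbers apart is not given in the labels, so a shared day, sort or animal cannot be told apart.

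**Figure D5:**
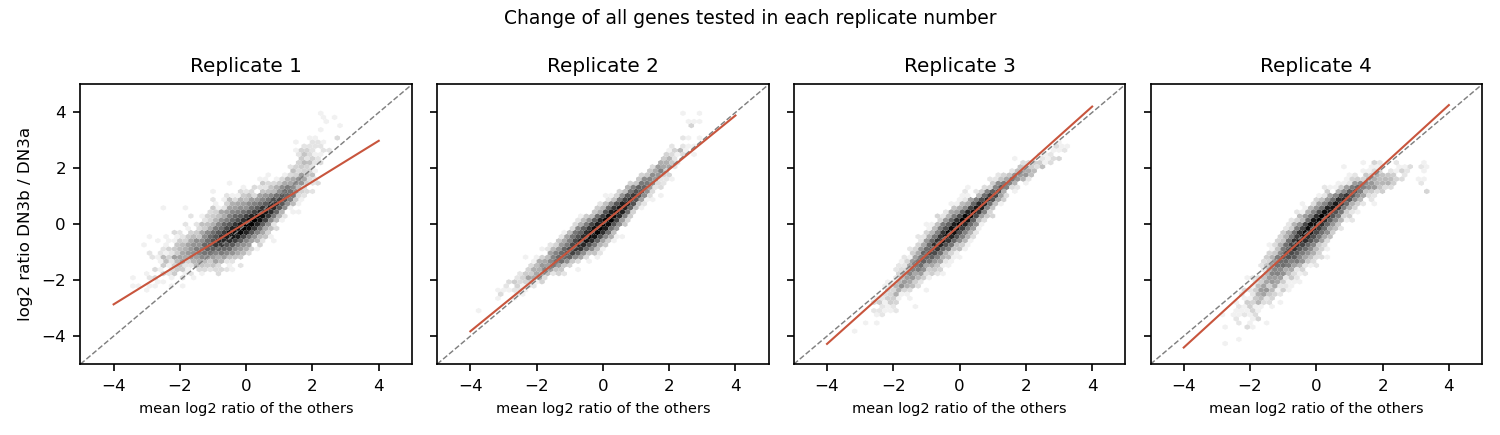
Log2 ratio of DN3b to DN3a (CPM + 0.5) in each replicate number against the mean ratio of the other numbers, for all 13715 genes tested (darker, more genes), with the fitted line in red and equality dashed. The slope is 0.731 for number 1 and 1.08 for number 4, and the points of number 1 lie flatter than equality.

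In a fit of all 12 libraries, the libraries labelled DCKO had 1.65, 1.64, 2.25 and 3.79 CPM of Zfp36l1 and 45.4, 49.3, 87.9 and 72.9 of Zfp36l2, the targeted genes, below every control library. They had 0.0806, 0.139, 0.131 and 0 CPM of H2-Q2, 3.02, 5.46, 1.25 and 1.53 of Ikzf3 and 16.9, 17.1, 14.3 and 17.5 of Zap70, all below every DN3b library. The log2 differences of DCKO from DN3b were -3.19 ± 0.45 for Ikzf3 and -2.03 ± 0.18 for Zap70 (adjusted p of 0.000466 and 1.18e-05), and DCKO did not pass against DN3a for either (0.901 and 0.272). H2-Q2 in DCKO also passed below DN3a (-3.03 ± 0.92, 0.0124). Other large rises differed. Bcat1 (3.57 ± 0.37), Arsi (2.52 ± 0.53), Sapcd2 (2.35 ± 0.28) and Pif1 (2.46 ± 0.46) passed above DN3a in DCKO. They did not pass against DN3b (0.329, 0.618, 0.395 and 0.942). Cd8b1, Prdx4, Syt13 and Phf19 passed against both stages, and Etv5 only against DN3b. For Hsd11b1 the DCKO libraries had 3.95, 3.09, 3.53 and 2.65 CPM, -3.54 ± 0.55 from DN3a (0.000144) with no call against DN3b (0.512). Scn4b in DCKO, at 78.9, 149, 56.5 and 36.4 CPM, passed against neither stage (0.154 for DN3a and 0.0532 for DN3b), though against DN3a alone, in the 8 libraries of those groups, it did (0.0418). Both comparisons share the control libraries with the comparison above. The DCKO libraries are labelled DN3 without a split into DN3a and DN3b. A different mix of the stages and a difference within cells therefore cannot be told apart in these values.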

How the data were processed

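RNA of sorted mouse thymocytes was sequenced, per the labels' protocols, after ribosomal RNA removal with a stranded total RNA kit. The authors deposited a table of raw read counts for 43629 Ensembl genes in 12 libraries. Trim Galore, HTSeq, TopHat2 2.0.12, DESeq2 1.6.3 and build GRCm38 stand in the submitters' processing notes. The strand setting and annotation release of the counting are not in the sources used here. The authors' deposited table of DN3b against DN3a gives a log2 fold change and an adjusted p-value per gene. Their tables of the DCKO comparisons and of scaled counts were not used. Antisense partners, overlapping genes and near-identical copies may share reads, and symbols and positions came from GENCODE M21, which matched 42548 gene identifiers.

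Genes were kept by edgeR 4.0.16 filterByExpr (minimum count 10), scaled by TMM and tested on the 8 control libraries with the quasi-likelihood F test, two-sided, with stage and replicate number as terms (3 residual degrees of freedom) and Benjamini-Hochberg adjustment over all 13715 genes at 0.05, in R 4.3.3. CPM values use the same scaling, and fold changes are given with their standard error (SE). Ratios within a replicate number use log2(CPM + 0.5). The replicate number of the titles was taken as pairing because same-numbered libraries deviated together from their stage means (correlations across genes of 0.456, 0.574, 0.374 and 0.536), while no label says what the number stands for. Libraries of a stage differed far beyond sampling noise (chi-square per gene 33.9 to 227), so none was counted as a duplicate. Totals were 28479157 to 45975678 counts. On simulated data, 200 well-counted genes among the 13715 tested were changed 2-fold, in equal numbers up and down. Of these 186 were recovered, beside 18 false calls. In the data 67.3% of genes were called, so the simulation cannot measure the error rate or the scaling of the comparison itself.

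Named genes were the 12 largest rises and 12 largest falls with a mean level of 3 or more in log2 CPM, the same direction in 4 numbers and no overlap, outside cell cycle lists, receptor segments, mitochondrial genes, pseudogenes, predicted genes and small RNA. Of the rises 1, and some other members, are not reported here. Added to them were up to 4 members of each of 66 lists with the smallest p and a fixed set of 34 genes. Further examples were chosen after their values were seen, with preference for calls that held under the alternatives. The comparison, its members and all lists were chosen with earlier results of these data known, so a list's count is a description. Lists were matched by symbol, and members not tested are left out of the counts. Alternatives were the fit without the block, a fit of all 12 libraries, DESeq2 1.42.0, limma 3.58.1 (voom), other scalings and filters, and leaving out each replicate number.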

Additional observations from a re-analysis of the deposited data

Results flagged for a closer look

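In 15 of 108 groups of 4 libraries, 54 genes at each stage, 1 library lay farther from the rest than Dixon's test at the 95% level allows. Chance alone flags about 1 in 20 such groups. In 8 of the 15 the library was DN3b replicate 1, always as the highest of its stage. These were H19 (111 CPM), Klhl4 (6.11), Ptcra (135), Rag1 (1698), Notch1 (1479), Notch3 (375), Bcl11b (489) and Cxcr4 (356). The genes joined the pre-T alpha chain, a recombinase gene and Notch receptors, all called lower in DN3b, and DN3b replicate 1 was also the DN3b library nearest to DN3a on the first principal component.

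In DN3a, replicate 1 was the highest for Notch3 (906 CPM) and Hsd11b1 (51.9), replicate 2 for Tcf12 (782), and replicate 4 for Arsi (6.12) and Cd4 (1.94). Syt13 was lowest in DN3a replicate 4 (6.63 CPM), and Myc was lowest in DN3b replicate 2 (186 CPM). Replicate 1 was the highest library for Notch3 at both stages.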

How the results depend on the processing

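The split into 4529 rises and 4704 falls moved by less than 1.5 times under each alternative run. Without the replicate block, 3564 genes rose and 3613 fell, 7160 of them called in the same direction with the block. A fit of all 12 libraries without the block gave 3815 and 3519, DESeq2 4582 and 4482, limma-voom 4535 and 4778, and DESeq2 size factors in edgeR 4631 and 4587. Upper quartile scaling moved the median log2 fold change of all genes from -0.04 to -0.16, a shift of -0.12, and gave 3795 rises and 5534 falls (40.7% rises in place of 49.1%); 42 of 42 ribosome biogenesis genes and 22 of 23 tRNA synthetase genes still rose. Leaving out each replicate number gave 3841 to 4787 rises and 3812 to 4940 falls. The 0 genes detected at 1 stage became 9 in DN3a and 3 in DN3b with thresholds of 0.5 and 0.2 CPM. Leaving out 1 replicate number gave 0 to 1 genes in DN3a and 0 to 2 in DN3b, the highest without number 1. Of 287 named genes 12 lost their call without the block, 11 in the 12-library fit, at most 4 under any other alternative, and 0 reversed; the causes were not tested. Of 132 counts of list members called in 1 direction, 20 moved by over 1.5 times without the block and 23 in the 12-library fit, against 11 with upper quartile scaling, at most 9 under other alternatives and 2 to 8 without 1 replicate number. Without the block the rises of the cholesterol list fell from 16 to 9, of the PI3K and mTOR list from 12 to 7, of the Hedgehog, TGF-beta and BMP list from 7 to 3, of the glycosyltransferases from 8 to 5 and of the AP-1 list from 4 to 2. The chromatin list also changed side with a mean CPM of at least 1 (31 and 32) and without replicate number 2 (30 and 33). Depth limits genes under about 1 CPM, such as Trac, Tbx21 and H2-Q1, whose DN3a levels rest on few reads.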

Other observations

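Surface sugar genes showed contrasts not described above. Of 40 glycosyltransferase genes 8 rose and 16 fell, against 33.0% and 34.3% of all genes. The sialyltransferase genes St3gal5 (1.46 ± 0.32 SE on the log2 scale) and St6gal1 (1.42 ± 0.18) and the galactosyltransferase gene B4galt5 (1.34 ± 0.11) were higher in DN3b, while St6galnac3 (-1.80 ± 0.28), B3gnt5 (-1.73 ± 0.23) and the fucosyltransferase gene Fut8 (-1.22 ± 0.19) were lower. In the Hedgehog, TGF-beta and BMP list 7 of 20 rose and 10 fell, with the Hedgehog transducer gene Smo at 0.79 ± 0.06 and the inhibitory Smad7 at -1.38 ± 0.26. Among 25 zinc finger stage factors 4 rose (16.0%) and 13 fell (52.0%). The rises were led by Zfpm1, a partner of GATA factors (1.72 ± 0.09), and the falls included Klf9 (-1.91 ± 0.13) and Zbtb4 (-1.85 ± 0.17). In the TCA cycle list 28 of 35 rose (80.0%) and 4 fell (11.4%), against 33.0% and 34.3% of all genes. The aspartate aminotransferase gene Got1 stood at 1.73 ± 0.09 and Pdk2, a kinase that restrains pyruvate entry, at -1.45 ± 0.30.

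Most Y chromosome genes fell, while X chromosome partners of some of them rose. Of 5 protein-coding Y genes tested 4 fell (80.0%, against 33.0% of all protein-coding genes), each in all 4 replicate numbers. Kdm5d fell by 0.84, Uty by 1.13, Ddx3y by 0.77 and Eif2s3y by 0.87 on the log2 scale, and Gm47283 did not pass (adjusted p = 0.478). Eif2s3y, a translation initiation factor gene, stood at 126, 158, 113 and 93.2 CPM in DN3a and at 75, 76.3, 60.3 and 54.3 in DN3b. Its X partner Eif2s3x stood at 198, 249.5, 241 and 279 CPM and at 339, 433, 431.5 and 535, with no overlap in either gene. Ddx3x rose as well (0.55 ± 0.09), while Kdm5c and Kdm6a, the partners of Kdm5d and Uty, stood at -0.18 ± 0.06 and -0.47 ± 0.06. Xist reached at most 0.202 CPM in any of the 8 libraries.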
